A study of Mus musculus with 3 samples.

Results

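Chondroitin sulfate is built by a small set of Golgi enzymes, and 9 of their genes, among 32285 genes in the count tables, are described here in splenic follicular T cells. They are Csgalnact1 and Csgalnact2, which place the first sugar of the chain, Chsy1, Chsy3, Chpf and Chpf2, which lengthen it, and Chst11, Chst12 and Chst15, which sulfate it. The genes were chosen by their unique molecular identifier (UMI) counts, summed over annotated cells by library, class and subcluster in these same data. Their levels and their ratios between genotypes are therefore descriptions, and no test of them is given. The tables hold all 9 genes, and Chsy3 was close to absent.

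Chondroitin sulfate chains are attached to core proteins such as serglycin, CD44 and the invariant chain CD74. Chains begin on a linkage sugar stretch shared with heparan sulfate, and the first N-acetylgalactosamine commits a chain to the chondroitin type. Alternating glucuronic acid and N-acetylgalactosamine are then added, and sulfate is placed on the finished sugars. In leukocytes such chains hold chemokines and granule proteins and act on adhesion.

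The cells were follicular T cells sorted from spleens 14 days after mice were immunised with OVA-liposome. The groups were BKO, whose genotype is given as a Siglec-G B-cell knockout, and WT, given as Wild-Type. Siglec-G is an inhibitory, sialic acid binding receptor of B cells, and by that label the deletion was aimed at B cells, not at the T cells studied. The driver of the deletion, the age of the mice and how many were pooled are not given in the sources used here. Follicular helper T cells (Tfh) help germinal centre B cells, while their regulatory counterparts in the follicle (Tfr) carry the factor Foxp3 and hold them back.

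RNA was counted with the 10x 3′ assay in 1 BKO and 2 WT samples. All 5554 barcodes of WT replicate 1 recurred in WT replicate 2 and their UMI totals correlated across these barcodes at r = 0.997, so the WT samples are called run 1 and run 2 of the same cells. BKO and WT run 1 carry the label batch 1 and WT run 2 batch 2, and 13 of 8433 BKO cells shared a barcode with WT run 2. With 1 library per genotype there is no replicate check and no p-value, and fewer cells of a kind cannot be told apart from less RNA per cell in a class sum. Tfh held 6389 cells and 43702235 UMIs in BKO, against 3727 cells and 18734327 UMIs in WT run 1 and 3668 cells and 29914602 UMIs in WT run 2. Tfr held 2044 cells and 15275355 UMIs in BKO, against 1416 cells and 8309616 UMIs in WT run 1 and 1449 cells and 13543176 UMIs in WT run 2. Siglecg, a B cell gene, had at most 4 UMIs in any class and library, so these T cells do not check the genotype. Levels are given as CPM, a gene's UMIs scaled to the total UMIs of the class in that library. Foxp3 stood at 349 CPM in BKO Tfr cells, against 356 and 331 CPM in the WT runs. In Tfh cells Foxp3 stood at 1.33 CPM in BKO, against 0.801 and 16.5 CPM in the WT runs.

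Chsy1 and Chst11 were high in the same subclusters of WT cells, so the 250 bases before their starts are shown first. Sequences are from RefSeq on GRCm38.p6, on the plus strand at chr7:66109242-66109491 for Chsy1 and chr10:82985247-82985496 for Chst11, and capitals mark motif matches on either strand.
Chsy1: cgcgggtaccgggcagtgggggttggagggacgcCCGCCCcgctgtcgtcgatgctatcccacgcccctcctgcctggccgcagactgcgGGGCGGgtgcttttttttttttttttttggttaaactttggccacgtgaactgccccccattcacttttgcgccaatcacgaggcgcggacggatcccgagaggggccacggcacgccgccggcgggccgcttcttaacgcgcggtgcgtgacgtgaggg
Chst11: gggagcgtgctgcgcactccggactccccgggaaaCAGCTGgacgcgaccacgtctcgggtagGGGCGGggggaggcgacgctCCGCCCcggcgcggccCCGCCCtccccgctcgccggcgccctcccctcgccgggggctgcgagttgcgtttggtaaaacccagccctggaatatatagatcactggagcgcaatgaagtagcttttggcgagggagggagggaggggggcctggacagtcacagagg

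The windows of Chsy1 and Chst11 were rich in G and C, at 65.6% and 70%, beside a median of 52.4% over 32851 windows. The SP motif GGGCGG, or its reverse complement CCGCCC, matched at 2 places before Chsy1 and at 3 before Chst11, and 32.7% of all windows hold it. The E-box CAGCTG matched at 1 place before Chst11 and is in 13.0% of all windows. The letters searched for RUNX (TGTGGT, in 14.0% of windows), ETS (CCGGAA, 12%), AP-1 (TGANTCA, 6.75%) and NFAT (GGAAAA, 20.4%) are in neither window on either strand. No motif match overlaps another in these windows. Windows were found for 7 of the 9 genes, all but Csgalnact1 and Chsy3. The SP motif also matched at 1 place before Chpf, at 2 before Chst12, at 4 in a window of Csgalnact2 and at 1 in a window of Chst15. It matched at 0 places before Chpf2. The motif therefore does not set Chsy1 and Chst11 apart from the other genes.

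Across all Tfh cells, 3 of the 9 genes were lower in BKO and none was higher, and in Tfr cells 1 was lower. Csgalnact1, the initiating enzyme, was lower in both classes, and the polymerase Chsy1 and the 4-O-sulfotransferase Chst11 were lower in Tfh cells. The call of Csgalnact1 in Tfh cells did not hold once ratios were corrected for intron length, at a log2 ratio of -0.37. To be called, a gene had to average 20 CPM or more over the 3 samples and lie 1.5 times or more beyond both WT runs in BKO. In Tfh cells 2.45% of 6559 genes were called lower and 0.396% higher, and in Tfr cells 2.4% of 6539 genes were called lower and 0.887% higher. Only 3 of the 9 genes reached 20 CPM in Tfh cells and 1 in Tfr cells, and Chsy1 and Chst11 did so in Tfh cells only through their WT levels. Since these values chose the genes, nothing is read from the counts of calls. All 9 genes together summed to 103 CPM in BKO Tfh cells, against 173 and 176 CPM in the WT runs. In Tfr cells the sums were 98.0 CPM in BKO, against 158 and 155 CPM in the WT runs. The median log2 ratio of BKO over WT, with 0.5 CPM added, was -0.18 over the 9 genes in Tfh cells and -0.10 in Tfr cells. The median of all genes of at least 20 CPM was -0.10 in Tfh cells and -0.09 in Tfr cells.

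**Figure D1:**
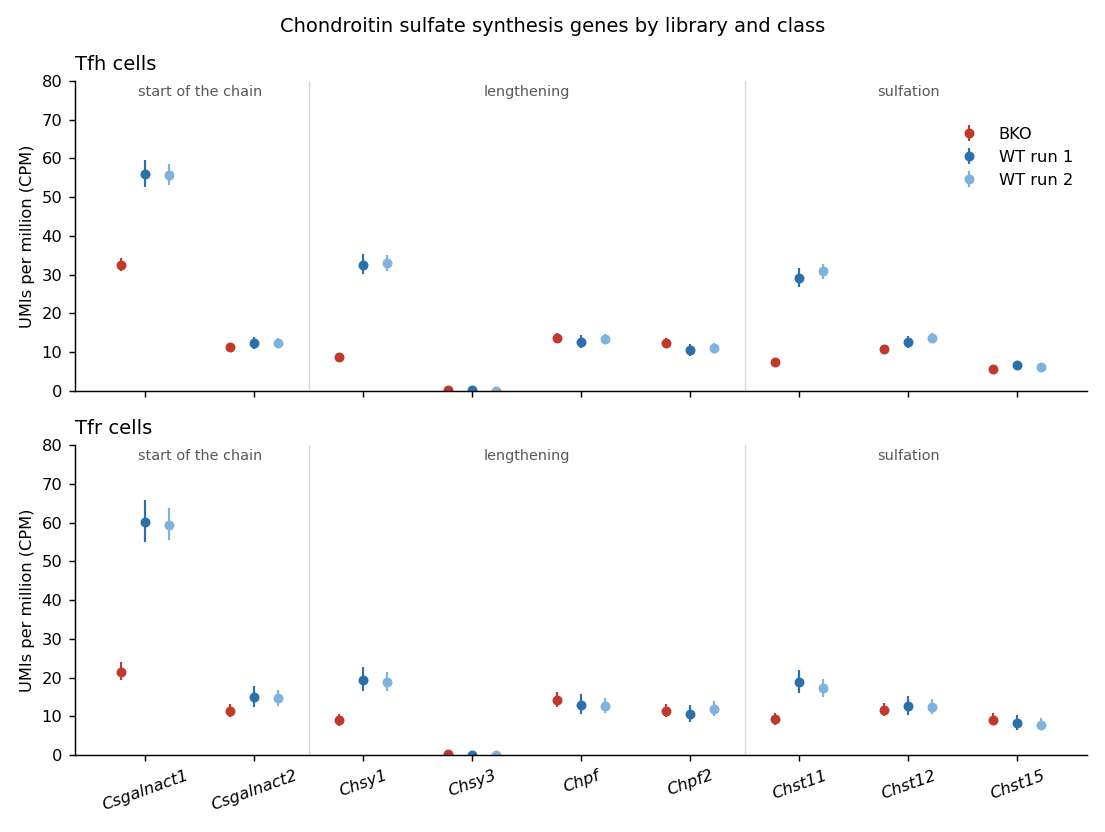
Level of each gene in CPM in Tfh cells (upper panel) and Tfr cells (lower panel), with BKO in red and the WT runs in blue, and bars for exact Poisson 95% intervals of the counts. Csgalnact1 stands lower in BKO in both panels, at 32.5 and 21.5 CPM, Chsy1 and Chst11 stand lower in BKO, and the points of Csgalnact2, Chpf, Chpf2, Chst12 and Chst15 lie close together.

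Csgalnact1 (ENSMUSG00000036356, GRCm38 chromosome 8, 68356781 to 68735146, minus strand) starts the chain on the linkage sugars. In Tfh cells it stood at 32.5 CPM in BKO (95% Poisson interval 30.9 to 34.3), against 56.0 CPM (52.7 to 59.5) in WT run 1 and 55.8 CPM (53.1 to 58.5) in WT run 2. The BKO interval lies below those of both runs, and the ratio was 1.71-fold lower (log2 -0.77, and -0.78 within batch 1). In Tfr cells it stood at 21.5 CPM in BKO (19.3 to 24.0), against 60.3 CPM (55.1 to 65.8) and 59.4 CPM (55.4 to 63.7) in the WT runs. Here the ratio was 2.74-fold lower (log2 -1.45, and -1.46 within batch 1), again with no overlap of intervals. Intervals cover counting error only. BKO and WT run 1 share a batch label but were counted with different versions of Cell Ranger, so ratios within batch 1 keep that difference.

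Csgalnact2, the second initiating enzyme, differed less. It stood at 11.2 CPM in BKO Tfh cells, against 12.3 CPM in each WT run, and the intervals overlap. In Tfr cells it stood at 11.5 CPM in BKO (9.82 to 13.3), against 15.0 CPM (12.5 to 17.9) and 14.7 CPM (12.7 to 16.9) in the WT runs, and the intervals again overlap. The log2 ratios were -0.13 in Tfh and -0.36 in Tfr cells. Both initiating genes together summed to 43.8 CPM in BKO Tfh cells, against 68.4 and 68.0 CPM in the WT runs.

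Chsy1 (ENSMUSG00000032640, chromosome 7, 66109515 to 66173798, plus strand) is a chondroitin synthase that carries both sugar transfer activities. In Tfh cells it stood at 8.70 CPM in BKO (7.84 to 9.61), against 32.6 CPM (30.1 to 35.3) and 33.1 CPM (31 to 35.2) in the WT runs. BKO was 3.63-fold lower (log2 -1.86, and -1.85 within batch 1). In Tfr cells it stood at 8.97 CPM in BKO (7.53 to 10.6), against 19.5 CPM (16.6 to 22.7) and 18.9 CPM (16.7 to 21.4) in the WT runs. The intervals do not overlap and the log2 ratio was -1.06 (-1.08 within batch 1), but its mean of 15.8 CPM lies under the minimum of 20. The BKO levels of Tfh and Tfr cells lay within each other's intervals, while WT Tfh cells stood above WT Tfr cells.

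The unnamed gene model Gm26827 lies on the opposite strand within Chsy1 (66109515 to 66173121). Gm26827 stood at 3.5 CPM in BKO Tfh cells, against 16.4 and 17.3 CPM in the WT runs, and at 4.71 CPM in BKO Tfr cells, against 9.63 and 9.08 CPM in the WT runs. It thus stood lower in BKO in the same classes as Chsy1. The sources used here do not say whether strand was used in counting, so reads of Chsy1 and of Gm26827 cannot be told apart with certainty.

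The other chain-lengthening genes were close between genotypes. Chpf, whose product joins the synthases to form the active polymerase, stood at 13.8 CPM in BKO Tfh cells, against 12.7 and 13.3 CPM in the WT runs. In Tfr cells Chpf stood at 14.3 CPM in BKO, against 13.0 and 12.7 CPM in the WT runs. Chpf2, a related polymerising factor, stood at 12.4 CPM in BKO Tfh cells, against 10.5 and 11.2 CPM in the WT runs, and at 11.4 CPM in BKO Tfr cells, against 10.6 and 12 CPM in the WT runs. All intervals of Chpf and Chpf2 overlap within a class, and their log2 ratios lay between 0.01 and 0.19, with values on both sides of 0 under other settings. Chsy3, a second synthase, had 7 UMIs in BKO Tfh cells, against 3 and 2 in the WT runs, and 5 in BKO Tfr cells, against 0 and 1 in the WT runs. A count of 0 in WT run 1 Tfr cells, taken to allow 3 UMIs, allows up to 0.361 CPM, and its exact interval reaches 0.444 CPM. No direction can be read for Chsy3 at this depth.

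Chst11 (ENSMUSG00000034612, chromosome 10, 82985498 to 83195900, plus strand) is a 4-O-sulfotransferase of chondroitin. In Tfh cells it stood at 7.51 CPM in BKO (6.71 to 8.36), against 29.2 CPM (26.8 to 31.8) and 30.8 CPM (28.9 to 32.9) in the WT runs. BKO was 3.81-fold lower (log2 -1.93, and -1.89 within batch 1). In Tfr cells it stood at 9.30 CPM in BKO (7.83 to 11), against 18.8 CPM (15.9 to 22) and 17.2 CPM (15.1 to 19.6) in the WT runs. The intervals do not overlap and the log2 ratio was -0.92 (-0.98 within batch 1), with a mean of 15.1 CPM. With a minimum of 5 CPM the lower genes were Csgalnact1, Chsy1 and Chst11 in both classes, where 4.29% of genes in Tfh cells and 3.41% in Tfr cells were called lower.

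The other sulfotransferases were close between genotypes. Chst12, the second 4-O-sulfotransferase, stood at 10.9 CPM in BKO Tfh cells (9.91 to 11.9), against 12.5 CPM (10.9 to 14.2) and 13.5 CPM (12.3 to 14.9) in the WT runs. The BKO interval of Chst12 lies below that of WT run 2 and overlaps that of WT run 1, at a log2 ratio of -0.25. In Tfr cells Chst12 stood at 11.7 CPM in BKO, against 12.6 and 12.3 CPM in the WT runs. Chst15, which adds a 6-O-sulfate to units already sulfated at position 4, stood at 5.58 CPM in BKO Tfh cells, against 6.57 and 6.22 CPM in the WT runs. In Tfr cells Chst15 stood at 9.10 CPM in BKO, against 8.18 and 7.83 CPM in the WT runs, and its intervals overlap in both classes. The gene model of Fgfr2 overlaps that of Chst15 on the same strand and had more UMIs, 2326 in BKO Tfh cells, against 1298 and 2110 in the WT runs, so how the counting split these genes is uncertain.

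The deposited tables divide the classes into numbered subclusters, and Chsy1 and Chst11 were concentrated in few of them. In WT cells both stood highest in Tfh subcluster 5, at 174 and 177 CPM for Chsy1 in the WT runs and at 108 and 115 CPM for Chst11. Tfh subcluster 6 came next, with Chsy1 at 61.8 and 59.7 CPM and Chst11 at 54.0 and 58.1 CPM in the WT runs. The intervals of subclusters 5 and 6 overlap neither each other nor, below subcluster 6, the next level among subclusters of at least 100 cells. BKO had 11 cells in subcluster 5, with 16 Chsy1 UMIs (181 CPM, 103 to 293) and 3 Chst11 UMIs (33.9 CPM, 6.98 to 99). In the 91 BKO cells of subcluster 6, Chsy1 stood at 36.4 CPM (25.2 to 50.8) and Chst11 at 25.7 CPM (16.4 to 38.2). Among the 11 BKO subclusters of at least 100 cells, no neighbouring levels of Chsy1 or Chst11 differed beyond their intervals. This does not show even levels, since Chsy1 ran from 14.2 CPM in Tfr subcluster 4 to 2.06 CPM in Tfh subcluster 7. Chst11 ran from 17.7 CPM in Tfr subcluster 0 to 4.11 CPM in Tfh subcluster 7.

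Csgalnact1 had another order. It stood highest in Tfh subcluster 3 in every library, at 55.1 CPM in BKO, against 110 and 102 CPM in the WT runs. Among subclusters of at least 100 cells its lowest WT levels were in Tfh subcluster 5, at 8.45 and 12.2 CPM in the WT runs, where Chsy1 and Chst11 stood highest. In BKO its lowest level was in Tfr subcluster 1, at 8.83 CPM, against 22.1 and 28.2 CPM in the WT runs. For Csgalnact2, Chpf, Chpf2, Chst12 and Chst15, the intervals of neighbours in the order of subclusters overlapped throughout in each library. For Csgalnact1 they overlapped in 8 of 10 neighbouring pairs in BKO and in 10 of 11 in each WT run. Such overlap does not show even levels. In WT run 1 Chst15 ran from 13.8 CPM in Tfr subcluster 4 to 0 CPM in Tfh subcluster 6.

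**Figure D2:**
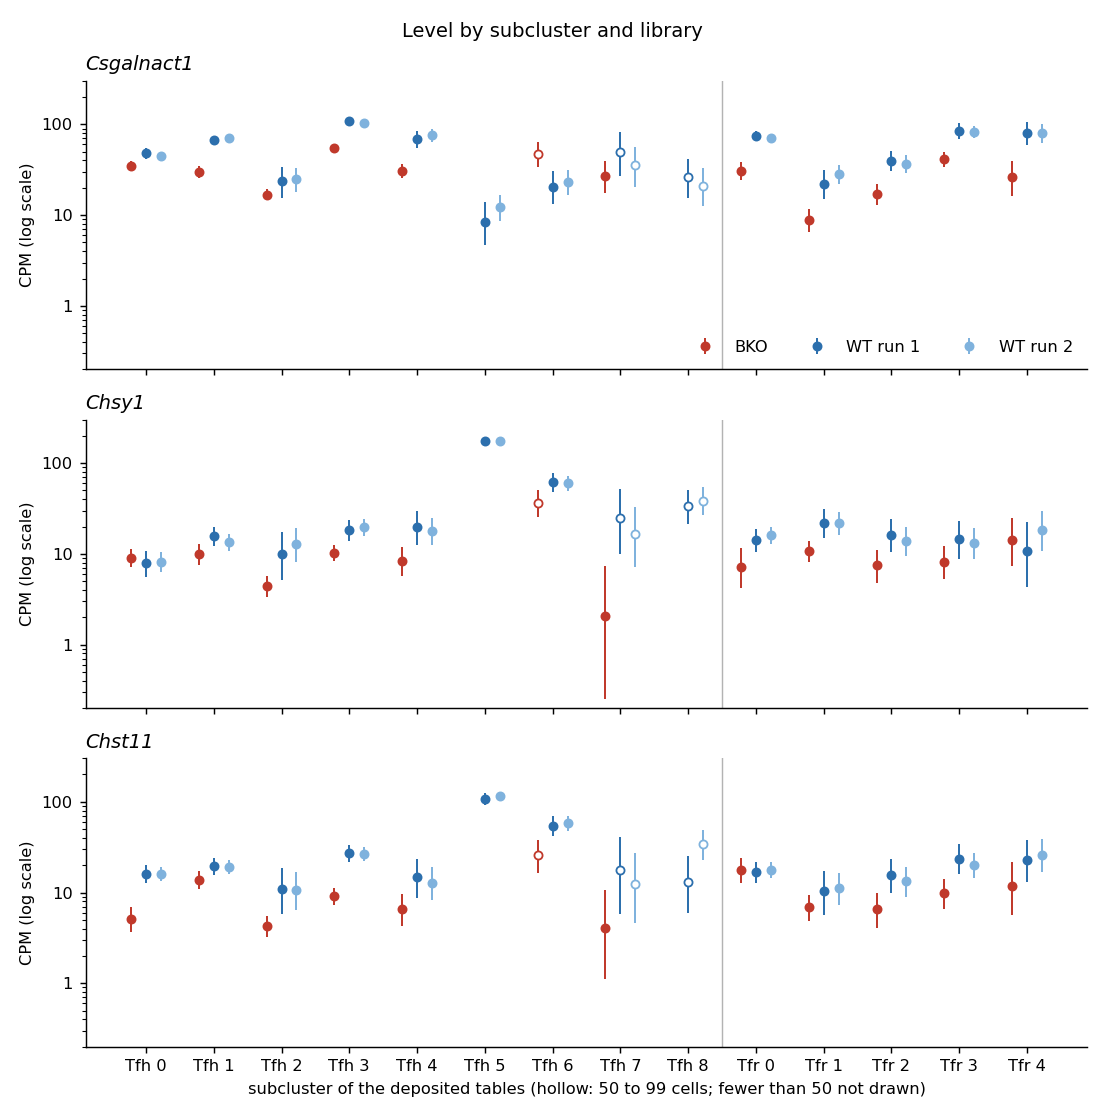
Level of Csgalnact1, Chsy1 and Chst11 in CPM (log scale) by subcluster of the deposited tables, with BKO in red and the WT runs in blue, bars for exact Poisson 95% intervals, and hollow points for 50 to 99 cells. Csgalnact1 is lowest in WT Tfh subcluster 5, where Chsy1 stands at 174 and 177 CPM in the WT runs.

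Tfh subclusters 5 and 6, with Tfr subcluster 6, are led by Eomes, Xcl1 or Ccl5, genes of cytotoxic and effector T cells, and made up different parts of the libraries. They held 102 of the BKO Tfh cells (1.60%), against 540 (14.5%) and 540 (14.7%) in the WT runs. Tfr subcluster 6 held 0 BKO cells, against 27 and 20 in the WT runs. The 9 markers of CD8 T and NK cells summed to 115 CPM in BKO Tfh cells, against 2633 and 2528 CPM in the WT runs, and 6 of the 9 stood lower in BKO than in both runs. In Tfr cells the same markers summed to 93.1 CPM in BKO, against 539 and 399 CPM in the WT runs, with 4 of 9 lower and 4 higher, and Ccl5 alone gave 27.1 CPM in BKO, against 400 and 295 CPM. The defining marker Cd8a had 1 UMI in BKO Tfh cells, against 0 and 1 in the WT runs, and Cd4 stood at 363 CPM in BKO, against 398 and 401 CPM. Of the other marker lists, cycling genes in Tfh cells were lower in BKO for 3 of 3 genes, with a sum of 87.7 CPM in BKO, against 192 and 162 CPM in the WT runs. B cell markers in Tfr cells summed to 1029 CPM in BKO, against 647 and 672 CPM in the WT runs, of which Ighm gave 1020 CPM in BKO, against 639 and 663 CPM, and of the 6 markers 3 were higher and 2 lower in BKO. Erythroid markers were higher for 2 of 2 genes, at 4.92 CPM in BKO Tfh cells, against 0.641 and 0.802 CPM, and at 2.55 CPM in BKO Tfr cells, against 0.722 and 0.665 CPM. Stroma markers in Tfr cells summed to 119 CPM in BKO, against 187 and 197 CPM in the WT runs, nearly all of it Pecam1. The part of these lists in the results was not tested.

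These subclusters carried much of the WT signal of Chsy1 and Chst11. Of all Chsy1 UMIs of Tfh cells, 13.2% came from subclusters 5 and 6 in BKO, against 62.4% and 64.0% in the WT runs. For Chst11 the shares were 8.23% in BKO, against 46.4% and 48.5% in the WT runs. For Csgalnact1 they were 3.09% in BKO, against 3.71% and 4.68% in the WT runs. In Tfr cells, subcluster 6 held 22.2% and 15.2% of the Chsy1 UMIs in the WT runs. The opposite-strand Gm26827 had 7.84% of its Tfh UMIs there in BKO, against 64.9% and 63.6% in the WT runs.

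**Figure D3:**
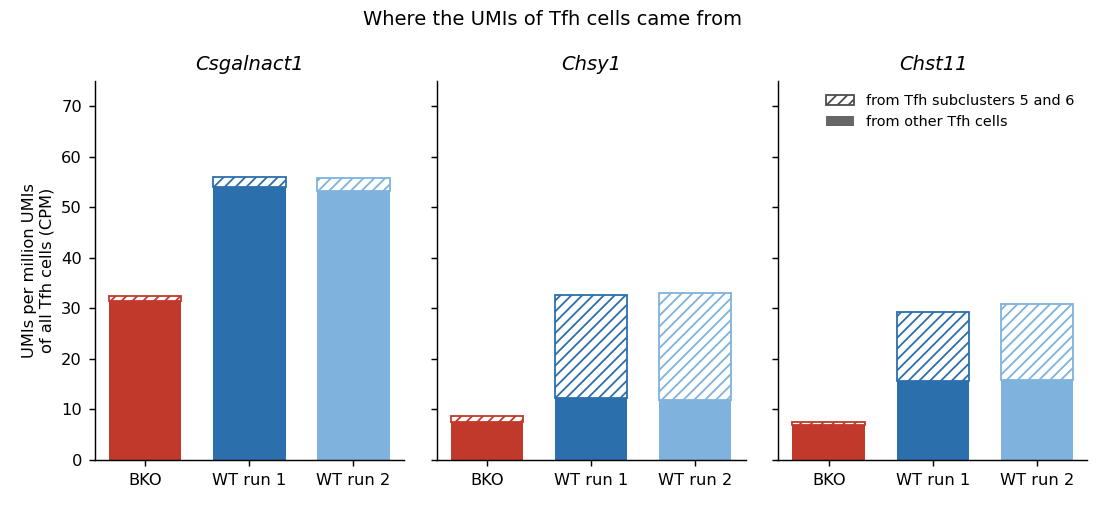
CPM of Csgalnact1, Chsy1 and Chst11 over all Tfh cells, split into UMIs from Tfh subclusters 5 and 6 (hatched) and from the other Tfh cells (solid), for BKO and the WT runs. The hatched part is 62.4% and 64.0% of the WT bars for Chsy1 and small for Csgalnact1 in every library.

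In the remaining cells the levels were also lower in BKO, and so were some of the effector markers. In the other Tfh cells Chsy1 stood at 7.73 CPM in BKO, against 14.6 and 14.2 CPM in the WT runs (log2 -0.85). Chst11 stood at 7.05 CPM in BKO, against 18.6 and 18.9 CPM in the WT runs (log2 -1.35). Csgalnact1 stood at 32.3 CPM in BKO, against 64.0 and 63.3 CPM in the WT runs (log2 -0.97). The 9 markers of CD8 T and NK cells still summed to 69.5 CPM in BKO there, against 215 and 222 CPM in the WT runs. Ccl5 made up the largest part of the WT sums, at 8.13 CPM in BKO, against 123 and 135 CPM. Gzmk went the other way, at 16.6 CPM in BKO, against 9.43 and 9.27 CPM in the WT runs. So did Gzma, at 2.16 CPM in BKO, against 1.08 and 1.15 CPM. Klrb1c was close, at 14.8 CPM in BKO, against 16.5 and 15.5 CPM. Ccl5 was uneven among these cells, and in Tfh subcluster 8 it stood at 1.70 CPM in BKO, against 1814 and 2339 CPM in the WT runs. That subcluster is small, with 46 BKO cells and 1 Ccl5 UMI in them, against 64 and 53 cells in the WT runs. In Tfh subcluster 3 Eomes stood at 1.48 CPM in BKO, against 19.8 and 17.0 CPM in the WT runs. The part of such cells in the levels of Chsy1 and Chst11 outside subclusters 5 and 6 was not tested. With the minimum of 20 CPM 1 gene was called there, Csgalnact1, since Chsy1 and Chst11 now fell short of the minimum. With a minimum of 5 CPM all 3 were called lower in the other Tfh cells, where 3.95% of 9864 genes were, and likewise in the other Tfr cells, where 3.37% of 9855 genes were.

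Subclusters also differed in size between the libraries. Tfh subcluster 2, low in Csgalnact1, held 2180 BKO cells, against 257 and 269 in the WT runs. There Csgalnact1 stood at 16.9 CPM in BKO, against 23.5 and 24.8 CPM in the WT runs, with overlapping intervals. Tfr subcluster 1, also low in it, held 742 BKO cells, against 229 and 248 in the WT runs.

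Within single subclusters of at least 100 cells per library, Csgalnact1 was lower in BKO in all 5 Tfh and all 5 Tfr subclusters. Its log2 ratios ran from -1.22 to -0.41 in Tfh and from -1.60 to -1.02 in Tfr subclusters, and the BKO interval lay below both WT intervals in 4 and 5 of them. The median of all genes in these subclusters lay between -0.11 and -0.02, but over whole classes genes of like intron length to Csgalnact1 had a median of -0.39 in Tfh and -0.40 in Tfr cells. The smallest difference, close to that median, was in Tfh subcluster 0, at 35.0 CPM in BKO, against 47.9 and 45.4 CPM in the WT runs. The largest was in Tfr subcluster 4, at 26.0 CPM in BKO, against 79.9 and 79.6 CPM in the WT runs.

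Chst11 was lower in BKO in 5 of 5 Tfh subclusters, with separate intervals in 3, and in 4 of 5 Tfr subclusters, with separate intervals in 1. Over whole classes, genes of like intron length to Chst11 had a median log2 ratio of -0.35 in Tfh and -0.36 in Tfr cells. Of genes with over 100 kb of intron, 96.0% in Tfh and 93.0% in Tfr cells lay below 0. In Tfh subcluster 1 Chst11 was close to that median, at -0.47. In Tfh subcluster 0 Chst11 stood at 5.12 CPM in BKO, against 16.0 CPM in each WT run. In Tfr subcluster 0 it stood at 17.7 CPM in BKO, against 16.9 and 17.8 CPM in the WT runs. Chsy1 was lower in BKO in 4 of 5 Tfh subclusters, with separate intervals in 2, and in 5 of 5 Tfr subclusters, with separate intervals in 1. Genes of like intron length to Chsy1 had a whole-class median of -0.23 in Tfh and -0.24 in Tfr cells. In Tfh subcluster 0 Chsy1 stood at 9.02 CPM in BKO, against 7.91 and 8.22 CPM in the WT runs. In Tfh subcluster 3 it stood at 10.2 CPM in BKO, against 18.2 and 19.6 CPM in the WT runs. The main exception among smaller subclusters was Tfh subcluster 6, where Csgalnact1 was higher in the 91 BKO cells, at 47.1 CPM (34.2 to 63.2), against 20.6 CPM (13.2 to 30.6) and 23.0 CPM (16.6 to 31.1) in the WT runs. For the other 6 genes, no subcluster of at least 100 cells had a BKO interval outside both WT intervals. This does not show even levels, since intervals are wide at these counts. Chst12 in Tfr subcluster 4 stood at 4.73 CPM in BKO, against 15.4 and 14.2 CPM in the WT runs. Chst15 in Tfh subcluster 4 stood the other way, at 3.04 CPM in BKO, against 0.822 and 0.513 CPM. The share of all genes with separate intervals was not taken.

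The WT and BKO counts were made with different versions of Cell Ranger, and ratios over all genes followed intron length. In Tfh cells the median log2 ratio was 0.17 over genes with under 3 kb of intron and -0.36 over genes with over 100 kb, and in Tfr cells 0.18 and -0.36. The genes described here lie along this range, since Chpf has 0.883 kb of intron and Chpf2 2.23 kb, while Chsy1 has 60.1 kb, Chst15 74.7 kb, Chst11 205 kb, Chsy3 353 kb and Csgalnact1 373 kb. With the running median over intron length taken off, the log2 ratios in Tfh cells were -0.37 for Csgalnact1, -1.62 for Chsy1 and -1.55 for Chst11. In Tfr cells they were -1.03, -0.82 and -0.55. The call of Csgalnact1 in Tfh cells was lost, and those of Chsy1 and Chst11 in Tfh cells and of Csgalnact1 in Tfr cells held, where 1.28% of genes were called lower in Tfh cells and 0.719% in Tfr cells. Genotype and program version cannot be told apart in these libraries.

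**Figure D4:**
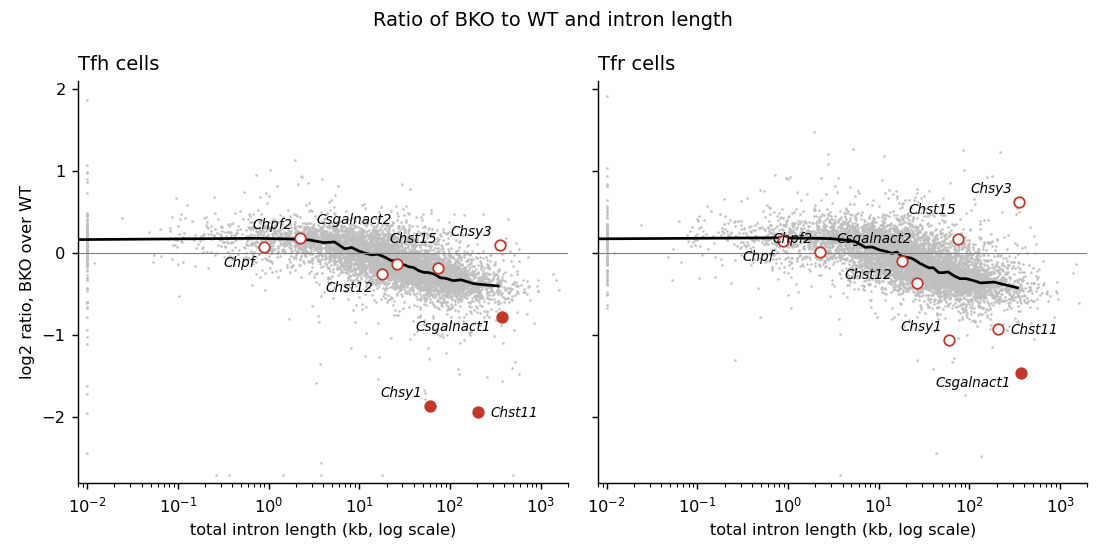
Log2 ratio of BKO over WT against total intron length (kb, log scale) for genes of at least 20 CPM (grey) in Tfh and Tfr cells, with the running median (black line) and the 9 genes (red, filled where they reach 20 CPM). Genes with almost no intron are drawn at the left edge and the few genes below the axis at its lower edge. Chsy1 and Chst11 lie far below the line in Tfh cells, at -1.86 and -1.93, and Csgalnact1 lies nearer to it there than in Tfr cells.

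A lower share of BKO cells had a UMI of Chsy1, Chst11 or Csgalnact1 when each cell was thinned to 2500 UMIs. In Tfh cells Chsy1 was found in 1.74% of BKO cells (Clopper-Pearson 1.43% to 2.09%), against 6.71% (5.91% to 7.58%) and 7.36% (6.53% to 8.26%) in the WT runs. Chst11 was found in 1.53% of BKO Tfh cells, against 6.23% and 6.92% in the WT runs, and Csgalnact1 in 6.36%, against 10.8% and 9.63%. Without thinning the shares of Chsy1 were 4.65% in BKO, against 11% and 15.6% in the WT runs, at median depths of 6243 UMIs per Tfh cell in BKO, against 4413 and 7294. In WT Tfh subcluster 5 the thinned share of Chsy1 was 33.1% and 35.8%, that of Chst11 21.6% and 26.2%, and that of Csgalnact1 1.18% and 0.826%. Thinning left out 66 BKO Tfh cells, against 194 and 56 in the WT runs. Single cells could hold many copies, up to 33 Csgalnact1 UMIs in 1 Tfr cell of WT run 2 and 14 Chst11 UMIs in 1 BKO Tfh cell.

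Free RNA could be read in the BKO matrix alone, from 907649 barcodes of 1 to 50 UMIs with 1686503 UMIs in all. There Csgalnact1 stood at 17.8 CPM (12 to 25.4), beside 29.7 CPM in annotated BKO cells. Chsy1 stood at 5.93 CPM (2.84 to 10.9), beside 8.77 CPM in BKO cells, and Chst11 at 8.30 CPM (4.54 to 13.9), beside 7.97 CPM. In BKO cells Csgalnact1 stood above its interval in free RNA, which rests on 30 UMIs. The other 8 genes had from 0 (Chsy3) to 29 UMIs (Chpf2) in free RNA, and their wide intervals hold the levels of BKO cells. The share of all genes above such an interval was not taken, so nothing is read from this count. How far these levels are background was not tested. No cells other than T cells are annotated in the tables, so no share in a type that should lack these genes is given.

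Between the classes, none of the 9 genes lay 1.5 times the same way in BKO and both WT runs at a mean of at least 20 CPM. Over all 6552 genes 1.79% were lower and 2.29% higher in Tfr than in Tfh cells by this rule. The log2 ratio of Tfr over Tfh for Csgalnact1 was -0.58 in BKO, against 0.10 and 0.09 in the WT runs, and without the subclusters led by Eomes, Xcl1 or Ccl5 it was -0.57 in BKO, against -0.08 and -0.09. For Chsy1 it was 0.04 in BKO, against -0.73 and -0.79 in the WT runs, and without those subclusters 0.20 in BKO, against 0.09 and 0.20. For Chst11 it was 0.29 in BKO, against -0.62 and -0.82 in the WT runs, and without those subclusters 0.38 in BKO, against -0.13 and -0.17. Chst15 was above 0 in every library, at 0.66 in BKO, against 0.30 and 0.31 in the WT runs, on a mean of 7.25 CPM.

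In the other lists of the pathway, 1 gene was called in Tfh cells and 2 in Tfr cells. Over all genes of at least 20 CPM, 2.45% were called lower and 0.396% higher in Tfh cells. In Tfr cells 2.4% were called lower and 0.887% higher. So few calls are not read as a result about these lists. Of 7 genes that build the shared linkage sugars, 4 reached 20 CPM in Tfh cells and 3 in Tfr cells, and none was called. Xylt1, the xylosyltransferase that primes the core protein, stood at 109 CPM in BKO Tfh cells, against 111 and 110 CPM in the WT runs. In Tfr cells Xylt1 stood at 62.9 CPM in BKO, against 82.1 and 83.1 CPM in the WT runs (log2 -0.39), under the fold needed. B3gat3, which ends the linkage with glucuronic acid, stood at 49.7 CPM in BKO Tfh cells, against 48.7 and 45.0 CPM in the WT runs. None of 7 genes of other chondroitin and dermatan sulfate modification reached 20 CPM in either class, and the highest mean was 7.46 CPM in Tfh cells, that of Dsel. Of 10 genes that supply sulfate donor and nucleotide sugars, 7 reached 20 CPM in each class and none was called. Slc35b3, which carries the sulfate donor into the Golgi, stood at 63.9 CPM in BKO Tfh cells, against 69.8 and 69.2 CPM in the WT runs. Slc26a2, a sulfate transporter, stood at 35.1 CPM in BKO Tfh cells, against 36.7 and 40.2 CPM in the WT runs.

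Heparan sulfate shares the linkage sugars, and of 15 genes of its chain building 6 reached 20 CPM in Tfh cells and 5 in Tfr cells, with none called. Ext1, which forms the heparan polymerase with Ext2, stood at 770 CPM in BKO Tfh cells, against 785 and 776 CPM in the WT runs. In Tfr cells Ext1 stood at 358 CPM in BKO, against 497 and 508 CPM in the WT runs. Ext2 stood at 40.0 CPM in BKO Tfh cells, against 46.9 and 45.7 CPM in the WT runs.

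Of 18 core proteins, 5 reached 20 CPM in Tfh cells, with none called, and 4 in Tfr cells, with 1 higher and 1 lower, beside 0.887% higher and 2.4% lower over all genes in Tfr cells. Srgn, which encodes the granule proteoglycan serglycin, was higher in BKO Tfr cells at 1875 CPM, against 1174 and 1143 CPM in the WT runs (log2 0.69). In Tfh cells Srgn stood at 1378 CPM in BKO, against 1013 and 977 CPM in the WT runs (log2 0.47), under the fold needed. Cd44, an adhesion receptor that can carry chondroitin sulfate, was lower in BKO Tfr cells at 120 CPM, against 190 and 191 CPM in the WT runs (log2 -0.67). This call of Cd44 was lost with the intron trend taken off, at -0.36. Of 11 lysosomal genes of breakdown, 3 reached 20 CPM in Tfh cells, with 1 lower, beside 2.45% lower over all genes there. In Tfr cells 4 reached it, with none called. Arsb, which removes 4-O-sulfate from chondroitin and dermatan sulfate, was lower in BKO Tfh cells at 35.0 CPM, against 68.6 and 67.6 CPM in the WT runs (log2 -0.95, and -0.60 with the intron trend taken off). In Tfr cells Arsb stood at 35.8 CPM in BKO, against 45.0 and 44.6 CPM in the WT runs.

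The genes whose levels ran most like those of the 3 called genes over subclusters were named from Pearson correlations of log2(CPM + 1), as descriptions over 11 BKO and 12 WT run 2 subclusters that share a library each. Csgalnact1 ran most like Arhgap5 (r = 0.94 in BKO and 0.93 in WT run 2), Ccdc50 and Btla, an inhibitory receptor of lymphocytes. Chsy1 ran most like Lamb3 (r = 0.78 in BKO and 0.90 in WT run 2), Hip1 and Gxylt1. Chst11 ran most like Tmco3 (r = 0.89 in BKO and 0.84 in WT run 2), Pms1 and Slamf7, a receptor of the SLAM family. Chsy1 and Chst11 ran alike at r = 0.58 in BKO and 0.88 in WT run 2. Csgalnact1 and Chsy1 had r = 0.08 in BKO and -0.66 in WT run 2. The subclusters differ between these correlations. Tfh subclusters 5 and 6, where WT levels of Chsy1 and Chst11 were highest, entered in WT run 2 alone. Tfh subcluster 7 entered in BKO alone. The r values of BKO and WT run 2 are therefore not compared.

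**Figure D5:**
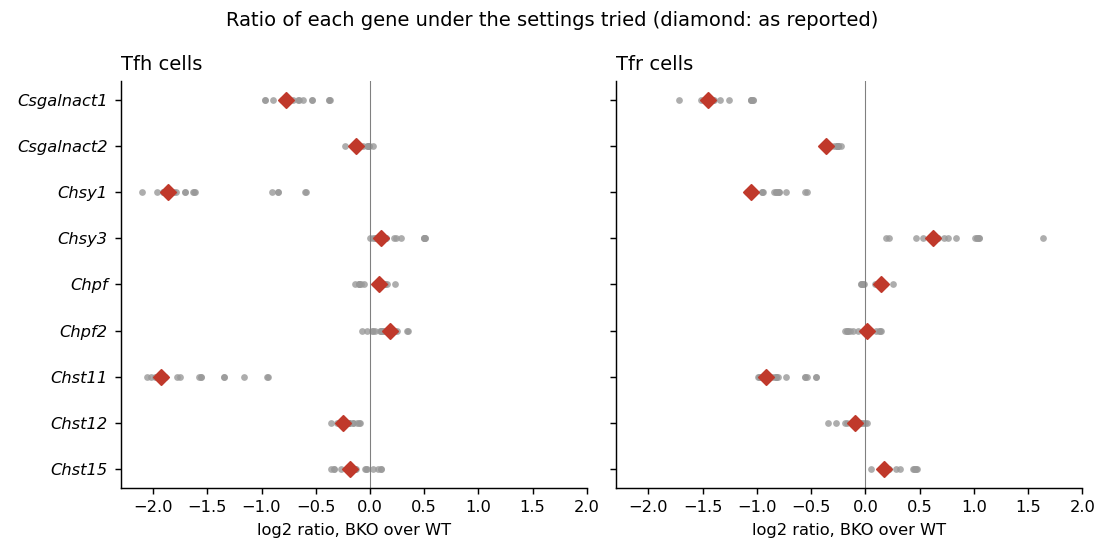
Log2 ratio of BKO over WT for each gene in Tfh and Tfr cells, as reported (red diamonds) and under 21 other settings of scaling, filters, cells and intron correction (grey). Csgalnact1, Chsy1 and Chst11 lie below 0 under every setting drawn. In Tfh cells the settings nearest to 0 gave -0.59 for Chsy1 and -0.94 for Chst11. These settings leave out the subclusters led by Eomes, Xcl1 or Ccl5 and also take off the intron trend.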

How the data were processed

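Each sample has a deposited matrix of unnormalised UMI counts, and 2 deposited tables list the Tfh and the Tfr cells with a UMI count and a subcluster number each. Cell Ranger and the build mm10 are named in the submitters' processing notes. Per the file headers, BKO counts come from Cell Ranger 4 and WT counts from cellranger-7.0.1. The sources used here do not say whether reads in introns were counted or strand was used.

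Cells, classes and subclusters came from the deposited tables, matched by barcode. The barcode endings separate the libraries. Of 5068 WT cells annotated in both runs, 527 had another class in each run. Cells over 4000 genes, 821 in BKO against 295 and 375 in the WT runs, are not in the tables. No doublet caller was run, and the treatment of doublets is not stated. UMIs were summed per library, class and subcluster and divided by the total (CPM), and ratios add 0.5 CPM. The size rule (20 CPM, 1.5 times) took the place of a test. Intervals are exact at 95%, Poisson for counts and Clopper-Pearson for shares, and cover counting error only, and a count of 0 allows 3 counts.

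Introns and loci were read from GENCODE vM21, build GRCm38 (32235 of 32285 features matched). TMM factors came from edgeR 4.0.16, and other steps used Python 3.11.15, numpy 2.4.6, pandas 2.3.3, scipy 1.17.1 and matplotlib 3.10.9. The text names all 9 genes, pathway genes past the size rule, the 2 of highest mean CPM per list (1 is not reported here), and the 3 genes most like each member that reached 20 CPM in a class. Gm26827, Fgfr2 and Dsel were named after their values were seen. The members and lists were chosen with earlier results of these data known. The alternatives changed scaling, totals, minimum, fold, added CPM, intron correction, subclusters, cells, depth and WT run.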

Additional observations from a re-analysis of the deposited data

Results flagged for a closer look

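Chst15 differed in direction between the classes, with a log2 ratio of BKO over WT of -0.18 in Tfh cells and of 0.17 in Tfr cells, the same sign against each WT run within a class. The difference between the classes was not tested. All intervals of Chst15 overlap between BKO and WT, and with the intron trend taken off both ratios were above 0, at 0.10 in Tfh cells and 0.47 in Tfr cells.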

How the results depend on the processing

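Under all 21 alternatives the log2 ratios of Csgalnact1, Chsy1 and Chst11 stayed below 0, ranging in Tfh cells from -0.97 to -0.37, -2.10 to -0.59 and -2.06 to -0.94, and in Tfr cells from -1.72 to -1.03, -1.09 to -0.54 and -0.99 to -0.46. Csgalnact1 in Tfh cells was called under 15 of the 21, the others being a 2-fold limit and the corrections for intron length. The count of genes lower in BKO Tfh cells, 3 as reported, was 1 (Csgalnact1) with equal weight per subcluster and 1 (Csgalnact1) without the subclusters led by Eomes, Xcl1 or Ccl5, and 0 when the intron trend was also taken off. With these subclusters left out, means of Chsy1 and Chst11 fell under 20 CPM, and with a minimum of 5 CPM the counts were 3, or 2 (Chsy1, Chst11) with the intron trend taken off. The count of genes lower in BKO Tfr cells, 1 as reported, was 2 (Csgalnact1, Chsy1) with the total taken without TCR, immunoglobulin, ribosomal and mitochondrial genes, 3 with a minimum of 5 CPM, with no minimum, or with 5 CPM and these subclusters left out, and 2 (Csgalnact1, Chsy1) with 5 CPM and the intron trend taken off. Genes higher in BKO Tfr cells, 0 as reported, came to 1 (Chsy3, at 5 UMIs in BKO) with no minimum. Leaving out either WT run gave 3 lower genes in Tfh and 1 in Tfr cells. TMM scaling moved all ratios up by 0.16 in Tfh and 0.11 in Tfr cells and changed no count. The combined settings, which join 2 or more changes, were chosen after seeing the data. With a minimum of 50 cells in place of 100, Tfh subclusters 6 and 7 joined the comparison within subclusters, and Csgalnact1 was higher in BKO in subcluster 6. Chsy1 and Chst11 in BKO rest on 137 to 380 UMIs per class, and with 1 library per genotype no setting replaces a replicate. No paired analysis was possible because 1 BKO library stands against 2 runs of the same WT cells and only replicate number 1 is shared.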
